A study of Homo sapiens with 4 samples.

Results

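The RNAs described here are the long intergenic noncoding RNAs of SAS cells that carry a LINC number as their name and were read in appreciable amounts. They were chosen by their summed counts, as the rows of the deposited count table named LINC followed by digits, with a sum of at least 100 counts over all 4 libraries. The table held 35767 rows, of which 537 had such a name, and 133 of these reached 100 counts. SAS is a cell line established from a human tongue squamous cell carcinoma. The libraries labelled siNAT10 (2, biological replicates 1 and 2) came from cells given a small interfering RNA against NAT10, and the libraries labelled siControl (2, biological replicates 1 and 2) from wild-type cells given a control small interfering RNA. NAT10 is the acetyltransferase that places N4-acetylcytidine on RNA, and the series compared cells with its knockdown against wild-type cells. The genotype label of siNAT10 replicate 2 names NAT11, another name of NAA40, in place of NAT10.

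Long intergenic noncoding RNAs are transcribed by RNA polymerase II, capped, usually spliced and often polyadenylated, and they hold no long open reading frame. The LINC numbers are provisional names for such loci. Some were renamed once a mechanism was described, and some were later found to encode a small protein. Many are low in abundance and vary strongly between cell types, which is why they are often studied as markers of tumour type, and some act on the gene next to them.

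The labels were first set against the targeted gene. NAT10 had 253 and 248 CPM (counts scaled to library size) in the siNAT10 libraries, against 240.4 and 231 CPM in the siControl libraries. Its log2 fold change was 0.09 ± 0.06 (SE, 95% interval -0.05 to 0.22, adjusted p = 0.293 in edgeR's quasi-likelihood test with Benjamini-Hochberg adjustment over all 20098 rows tested). Both libraries labelled siNAT10 thus lay slightly above both siControl libraries in NAT10 RNA, and every direction given below is that of the labels. NAA40 had 18.6 and 18.2 CPM in siNAT10 and 22.1 and 18.8 CPM in siControl, with a log2 fold change of -0.15 ± 0.10 (adjusted p = 0.255). Library totals ranged from 30794757 to 36341785 counts, so that 3 counts, taken as the floor of detection, stood for 0.0825 to 0.0974 CPM. Among squamous epithelial markers KRT17 and SFN were abundant, KRT14 had 430, TP63 103 and KRT5 17 counts in all 4 libraries together. Of the 6 squamous markers tested, 3 were called lower in edgeR's quasi-likelihood test, KRT14 (log2 fold change -1.09), EPCAM (-0.99) and KRT17 (-0.58), 1 was called higher, SFN (0.17), and the median was -0.72. The 7 markers in the table, none of them at 0, summed to 814 to 861 CPM in siNAT10 and 1080 to 1109 CPM in siControl, and the part of this in the LINC results was not tested. Markers of fibroblasts, leukocytes and endothelium were uneven. Of the fibroblast markers, COL1A1 had 3439 and PDGFRB 1113 counts in all 4 libraries together, more than KRT14, while COL1A2 had 36 and LUM and COL3A1 12 each. The endothelial marker CDH5 had 266 counts, and the leukocyte marker PTPRC had 8.

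More of the LINC RNAs were lower than higher in the libraries labelled siNAT10. All 133 passed the filter on low counts and were tested. Of these, 54 (40.6%) were called at an adjusted p below 0.05 by edgeR's quasi-likelihood test, a share close to the 40.4% of all rows tested. The split by direction differed from that of the table. Of the members, 13 (9.77%) were called higher, where 19.7% of all rows were, and 41 (30.8%) were called lower, where 20.7% of all rows were. Calls of at least 2-fold numbered 19, of which 4 were higher and 15 were lower, and the shares over all rows were 8.36% for either direction, 2.74% higher and 5.62% lower. The 2 values of siNAT10 lay wholly above or wholly below those of siControl for 99 members (74.4%), against 69.5% of all rows. By direction, 36 members lay above and 63 below, where 6858 of all 20098 rows tested lay above and 7114 below. The median log2 fold change of the 133 members was -0.17, and that of all rows was -0.01. In these bulk libraries, fewer cells holding an RNA and less of it in each cell cannot be told apart. No test was made of the list as a whole, since its members were chosen with results of these data in view.

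**Figure D1:**
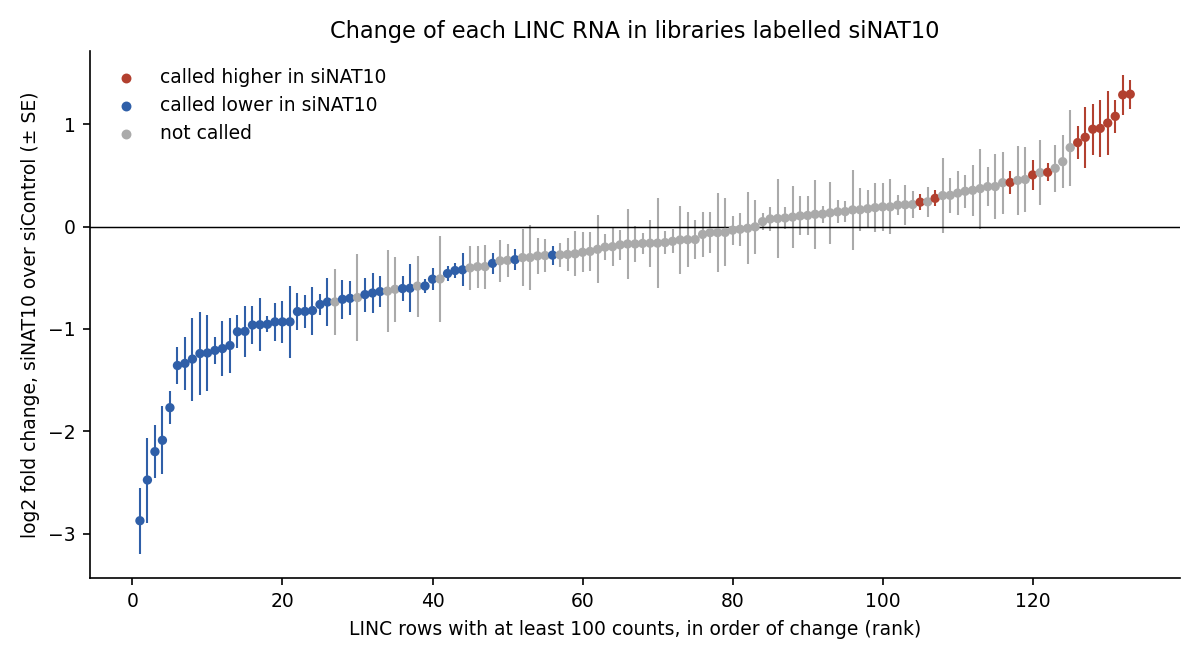
Log2 fold change (siNAT10 over siControl, vertical axis, with its SE as a bar) of each of the 133 LINC RNAs, ranked along the horizontal axis from the lowest to the highest. The 41 called lower lie towards the left and reach -2.87, and the 13 called higher, towards the right, reach 1.29.

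Under scaling by library totals alone the median log2 fold change was -0.12 for all rows and -0.28 for the LINC RNAs. With that scaling 80.7% of the LINC calls were lower and 67.6% of all calls, against 75.9% and 51.3% with TMM scaling. The median of the LINC RNAs lay below that of all rows under both scalings. Their counts made up 0.0943% and 0.0952% of the siNAT10 libraries, and 0.121% and 0.115% of the siControl libraries. Summed over the members, the levels were 979 and 993 CPM in siNAT10 and 1153 and 1113 CPM in siControl. The siNAT10 sums were both lower than the siControl sums. These sums lean on a few abundant RNAs. The 5 highest rows of each library held 28.0% and 27.8% of the member counts in siNAT10, and 32.7% and 30.9% in siControl. An exact two-sided permutation test of 2 libraries against 2 cannot give a p below 0.333, so none is given for these sums.

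Depth and exon structure were compared with the direction of the calls. Rows of low count are called less often, and the members had a median sum of 467 counts. Of the members 30.8% were called lower, and at the same distribution of counts 20.3% of all rows, 19.1% of other long noncoding rows and 23% of protein-coding rows were. Calls of a rise covered 9.77% of the members, against 15.1% of all rows, 13.7% of other long noncoding rows and 14.2% of protein-coding rows at the same counts. Falls were thus more frequent, and rises less frequent, among the members than in each of these sets, as a description without a test. Among the 75 members whose exons overlap no other row, 7 were called higher (9.33%) and 29 lower (38.7%), with a median log2 fold change of -0.28. Of the 58 members that share exon bases with another row, 6 were called higher (10.3%) and 12 lower (20.7%), with a median of -0.13. Of all rows tested 19.7% were called higher and 20.7% lower. The share of falls thus stood above that of all rows only among the 75 members without overlap. Since the strand setting of the counting is not given in the sources used here, reads of these 58 cannot be told apart from those of their partners, and partners are named below.

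**Figure D2:**
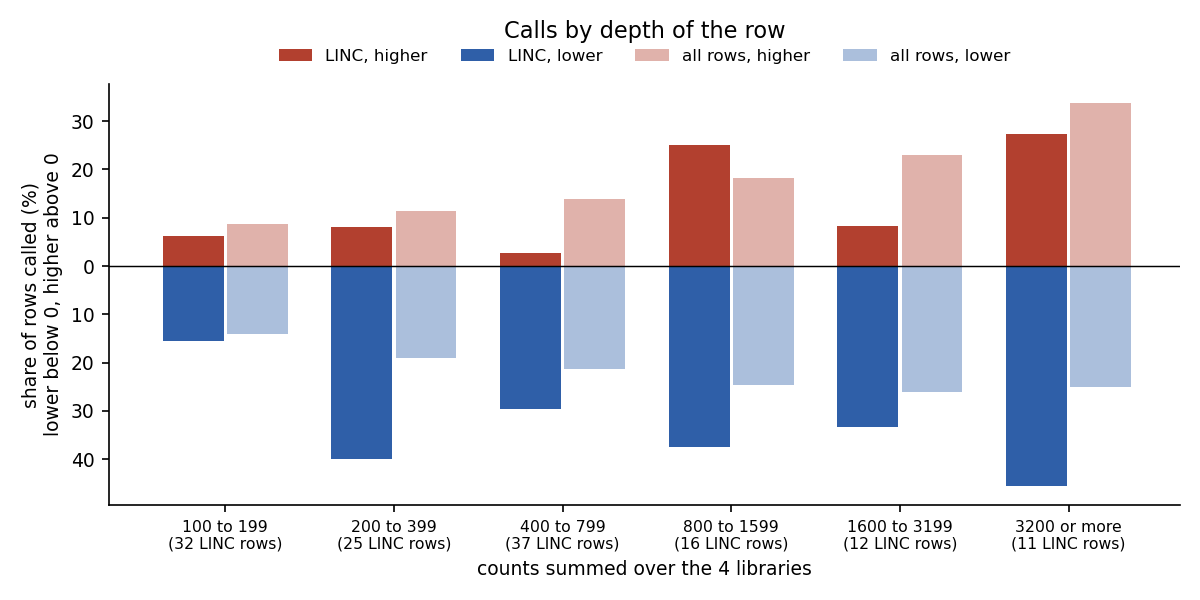
Share of rows called higher (above 0) and lower (below 0), in percent, by the counts summed over the 4 libraries, for LINC RNAs (solid) and all rows of the table (pale). In each of the 6 classes of depth the LINC share called lower is above that of all rows, from 15.6% against 14% at 100 to 199 counts to 45.5% against 25.1% at 3200 counts or more. The LINC share called higher is below that of all rows except at 800 to 1599 counts, where it is 25% against 18.2%.

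The members were described by length and level. The exonic length ran from 483 to 18352 bases with a median of 2811, and the median number of exon blocks was 5, with 16 members in a single block. They lay on 22 chromosomes. Per length, their median level was 3.99 TPM (counts per length, scaled to the same total in each library), against 11.5 TPM for protein-coding rows and 7.43 TPM for other long noncoding rows with at least 100 counts. At the edge of the rule the lowest 3 members inside were LINC01422 with a sum of 104 counts and LINC01132 and LINC01389 with 105 each. The first rows outside were LINC01535 with 98, LINC00629 with 96 and LINC00854 with 96.

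The largest fall was that of LINC01518, a locus of 4 exon blocks on chromosome 10 (42674197 to 42691723, minus strand). LINC01518 had 0.347 and 0.407 CPM in the siNAT10 libraries, against 2.52 and 3.02 CPM in the siControl libraries. It was 7.33-fold lower (log2 fold change -2.87 ± 0.32, adjusted p = 8.15e-07, edgeR quasi-likelihood). The raw counts were 12 and 12 in siNAT10 and 96 and 112 in siControl, so the groups stood far apart although the level was low in both. LINC00239 on chromosome 14 followed with 0.260 and 0.271 CPM in siNAT10 and 1.26 and 1.72 CPM in siControl (log2 fold change -2.48 ± 0.41, adjusted p = 8.57e-05). These are the 2 members with fewer than 25 counts in one group, and both are low in siNAT10.

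Further falls of more than 2-fold came from loci with no exon overlap. LINC00923, spread over 18 exon blocks on chromosome 15, had 0.809 and 1.19 CPM in siNAT10 and 5.30 and 3.77 CPM in siControl, a log2 fold change of -2.20 ± 0.26. The unspliced LINC00552 on chromosome 13 had 0.462 and 0.847 CPM in siNAT10 and 3.36 and 2.13 CPM in siControl (-2.09 ± 0.33). The replicates of LINC00552 differed widely within each group. LINC00570 on chromosome 2 was better covered, with 2.63 and 2.98 CPM in siNAT10 and 8.98 and 10.1 CPM in siControl. Its log2 fold change was -1.77 ± 0.16, with an adjusted p of 4.48e-08 in edgeR's quasi-likelihood test. LINC01239 had 2.23 and 3.08 CPM in siNAT10 and 6.88 and 6.63 CPM in siControl (-1.36 ± 0.18). Each of these RNAs was lower in both siNAT10 libraries than in either siControl library, which the choice of the largest falls required. Each stayed called in all 12 alternative analyses.

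LINC00941, an RNA described in several carcinomas as promoting growth and invasion, fell as well. It had 1.18 and 1.02 CPM in siNAT10 and 2.49 and 3.10 CPM in siControl, which is 2.52-fold lower (log2 fold change -1.34 ± 0.26, adjusted p = 0.000388, edgeR quasi-likelihood). LINC00689 on chromosome 7 had 5.09 and 4.98 CPM in siNAT10 and 11.4 and 11.9 CPM in siControl (-1.21 ± 0.13), and its exons overlap those of VIPR2 on the opposite strand. LINC00313 on chromosome 21 had 1.01 and 1.08 CPM in siNAT10 and 2.28 and 2.51 CPM in siControl (-1.19 ± 0.27). In all 3 the replicates were close together and the groups well apart.

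A weaker footing applied to 3 falls of low count. LINC01132 had 0.433 and 0.407 CPM in siNAT10 and 1.05 and 1.02 CPM in siControl (log2 fold change -1.29 ± 0.41). LINC00648 had 0.549 and 0.373 CPM in siNAT10 and 0.998 and 1.21 CPM in siControl (-1.24 ± 0.40). LINC00626 had 0.578 and 0.474 CPM in siNAT10 and 1.34 and 1.16 CPM in siControl (-1.23 ± 0.37). Their adjusted p-values were 0.0153, 0.0187 and 0.0116 in edgeR's quasi-likelihood test, and each call was lost under 3 of the 12 alternatives. Without siNAT10 replicate 2 the adjusted p was 0.0520 for LINC01132, 0.0982 for LINC00648 and 0.0527 for LINC00626. Leaving out siControl replicate 1 gave 0.0548 for LINC01132 and 0.0639 for LINC00626, and leaving out siControl replicate 2 gave 0.109 for LINC00648. The DESeq2 Wald test gave 0.140 for LINC01132, 0.147 for LINC00648 and 0.117 for LINC00626.

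**Figure D3:**
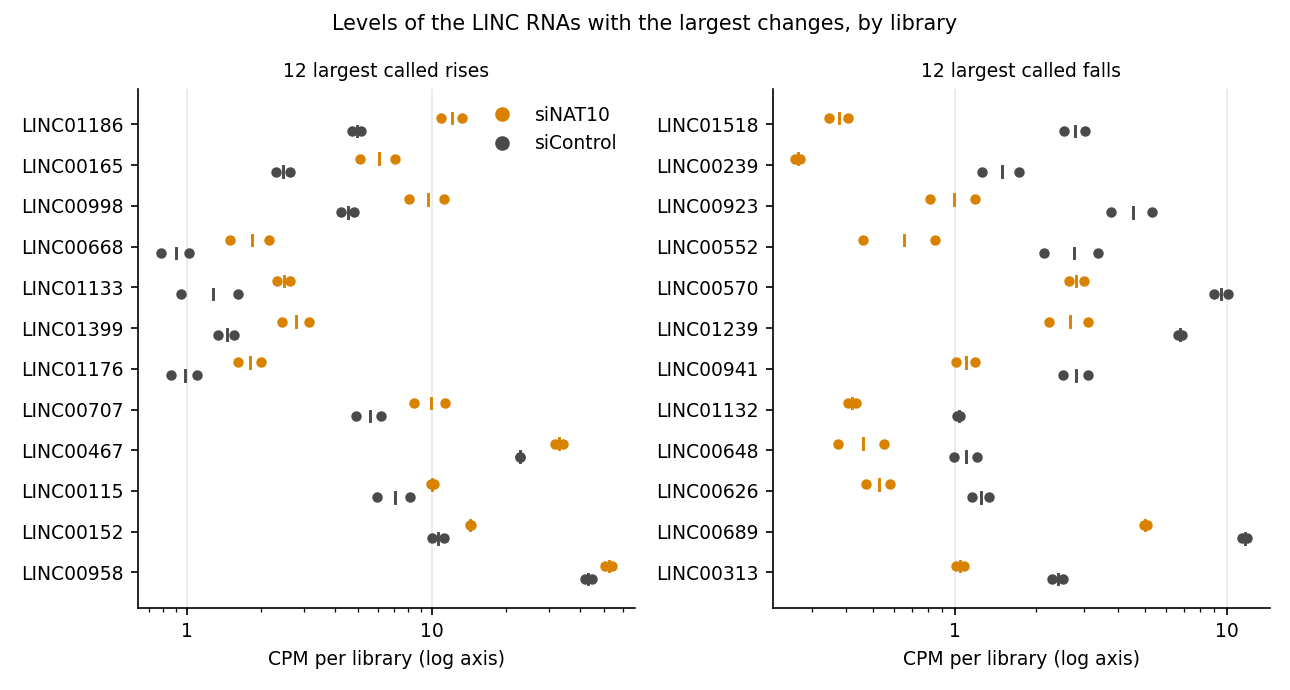
Level of each LINC RNA in each library (CPM, log axis), siNAT10 in orange above siControl in grey, for the 12 largest called rises (left) and the 12 largest called falls (right). Points are libraries and short bars are group means. The groups do not overlap in any of them, which the choice of these RNAs required, and the falls lie mostly below 10 CPM.

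The 13 RNAs that rose were led by LINC01186, LINC00165 and LINC00998. LINC01186, of 2 exon blocks on the X chromosome (46325924 to 46327645, minus strand), had 13.2 and 10.8 CPM in siNAT10, against 5.12 and 4.71 CPM in siControl. It was 2.45-fold higher (log2 fold change 1.29 ± 0.14, adjusted p = 5.67e-07, edgeR quasi-likelihood). LINC00165 on chromosome 21 had 5.09 and 7.05 CPM in siNAT10 and 2.31 and 2.64 CPM in siControl (1.29 ± 0.20). Both RNAs were higher in each siNAT10 library than in either siControl library, which the choice of the largest rises required. Neither shares exon bases with another row. LINC00707 on chromosome 10 rose less, with 8.44 and 11.2 CPM in siNAT10 and 6.20 and 4.90 CPM in siControl (0.82 ± 0.16). LINC00115 on chromosome 1, which overlaps LINC01128 on the opposite strand, had 10.1 and 9.89 CPM in siNAT10 and 8.14 and 5.98 CPM in siControl (0.50 ± 0.15). Its call was lost without siControl replicate 2, where the log2 fold change was 0.30 (adjusted p = 0.144), and in the DESeq2 Wald test (adjusted p = 0.0616).

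Among rises of lower level, LINC00668 had 1.50 and 2.17 CPM in siNAT10 and 1.02 and 0.781 CPM in siControl (log2 fold change 1.01 ± 0.31, adjusted p = 0.0140, edgeR quasi-likelihood). LINC01399 had 3.15 and 2.44 CPM in siNAT10 and 1.34 and 1.56 CPM in siControl (0.95 ± 0.25). LINC01176 had 1.62 and 2.00 CPM in siNAT10 and 1.10 and 0.862 CPM in siControl (0.87 ± 0.30). All 3 share exon bases with another row, LINC00668 with SCML2P1, LINC01399 with COX7BP1 and RP3-323A16.1, and LINC01176 with GS1-114I9.3. The calls were lost in the DESeq2 Wald test on all 4 libraries, with adjusted p-values of 0.114 for LINC00668, 0.0560 for LINC01399 and 0.175 for LINC01176, and when some single libraries were left out. LINC00668 had an adjusted p of 0.145 without siNAT10 replicate 2 and 0.0845 without siControl replicate 2, LINC01176 had 0.138 and 0.148 without the same libraries, and LINC01399 had 0.0602 without siNAT10 replicate 1.

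The most abundant LINC RNAs per length included RNAs with a described mechanism. LINC01021, now PURPL, is induced by p53 and is known to hold basal p53 levels down. It had the highest level of all members, with 87.4 and 80.6 TPM in siNAT10 and 133 and 101 TPM in siControl. On scaled library sizes LINC01021 had 79.8 and 76.4 CPM in siNAT10 and 107 and 83.0 CPM in siControl. Its log2 fold change was -0.28 ± 0.09 (adjusted p = 0.0234, edgeR quasi-likelihood). The call rested on siControl replicate 1, the highest of the 4 libraries, since without it the log2 fold change was -0.09 (adjusted p = 0.397). Without siNAT10 replicate 2 it was -0.25 (adjusted p = 0.135).

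LINC00473, a primate-specific RNA known to be induced through cyclic AMP and CREB, fell. It had 58.2 and 58.1 CPM in siNAT10, against 88.2 and 85.7 CPM in siControl, a log2 fold change of -0.58 ± 0.07 (adjusted p = 1.54e-06, edgeR quasi-likelihood). LINC00602 is transcribed the other way from within its first exon, and their exons overlap. LINC00602 had 36.8 and 36.6 CPM in siNAT10 and 49.0 and 49.8 CPM in siControl (-0.43 ± 0.08). Replicates of both RNAs agreed closely and the groups did not overlap. As the strand setting is not given, the reads of LINC00473 and LINC00602 cannot be told apart where they overlap. LINC00342 on chromosome 2, with no overlapping row, fell the most among the abundant members, with 34.5 and 34.2 CPM in siNAT10 and 69.9 and 63.3 CPM in siControl (-0.95 ± 0.08, adjusted p = 1.13e-08).

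The other members among the 10 highest per length moved in both directions. LINC00942 had 11.2 and 11.9 CPM in siNAT10 and 19.6 and 19.5 CPM in siControl (log2 fold change -0.76 ± 0.10, adjusted p = 8.23e-06, edgeR quasi-likelihood). LINC00106, whose locus lies in the pseudoautosomal region of the X chromosome, had 2.80 and 3.39 CPM in siNAT10 and 5.59 and 4.50 CPM in siControl (-0.71 ± 0.19), a call lost without siControl replicate 1 (adjusted p = 0.0603) and in the DESeq2 Wald test (0.0564). LINC01271, which overlaps LINC01270 on the opposite strand, was not called, with 15.9 and 15.5 CPM in siNAT10 and 17.4 and 17.8 CPM in siControl (-0.16 ± 0.10, 95% interval -0.37 to 0.04). Of the risers, LINC01186 had the highest level per length, with 60.9 and 48.2 TPM in siNAT10 and 26.9 and 24.1 TPM in siControl. LINC01123, which overlaps ZBTB45P1, was called with a small rise, at 39.8 and 41.3 CPM in siNAT10 and 35.4 and 33.3 CPM in siControl (0.24 ± 0.08, adjusted p = 0.0233). It lost its call under 5 alternatives, which were library totals alone (0.13, adjusted p = 0.227), the DESeq2 Wald test (adjusted p = 0.0786), and leaving out siNAT10 replicate 1 (adjusted p = 0.0527), siNAT10 replicate 2 (0.140) or siControl replicate 2 (0.102).

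**Figure D4:**
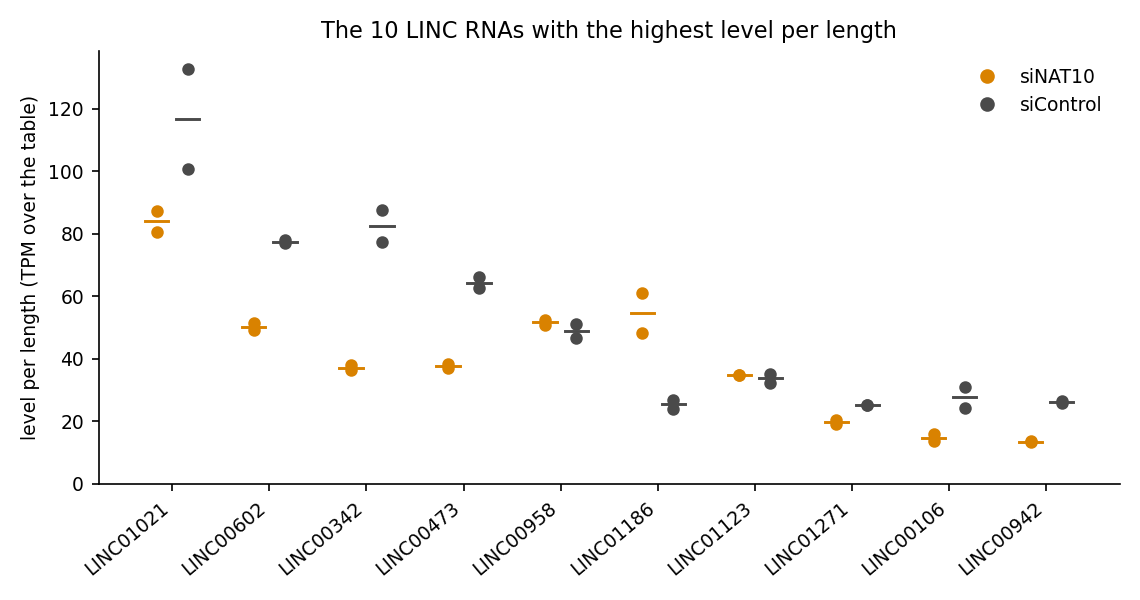
Level per length (TPM over the table, vertical axis from 0) of the 10 LINC RNAs with the highest mean, siNAT10 in orange left of siControl in grey, with points for libraries and bars for group means. LINC01021 leads with 87.4 and 80.6 TPM in siNAT10 and 133 and 101 TPM in siControl, and LINC01186 is the clearest rise. TPM carry no scaling between libraries beyond their sum, so small differences here can depart from those in CPM.

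LINC loci that encode a small protein included the third largest rise. Of 9 such loci listed, 6 were members, and of these 2 rose, none was called lower and 4 were not called, where 40.4% of all rows were called. LINC00998 is now SMIM30, which encodes a small integral membrane protein from a single exon on chromosome 7 (113116718 to 113118613, minus strand). LINC00998 had 8.03 and 11.1 CPM in siNAT10 and 4.78 and 4.26 CPM in siControl. It was 2.11-fold higher (log2 fold change 1.08 ± 0.16, adjusted p = 3.02e-05, edgeR quasi-likelihood), and both siNAT10 libraries lay above both siControl libraries. Its coding sequence in the GENCODE 29 annotation of GRCh38 (chr7:113117399-113117578, minus strand) is 180 bases long with the stop codon and encodes 59 residues. The sequence is shown because it is the part of this LINC row that is known to be translated, with the start and stop codons in capitals.

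LINC00998 (SMIM30) coding sequence: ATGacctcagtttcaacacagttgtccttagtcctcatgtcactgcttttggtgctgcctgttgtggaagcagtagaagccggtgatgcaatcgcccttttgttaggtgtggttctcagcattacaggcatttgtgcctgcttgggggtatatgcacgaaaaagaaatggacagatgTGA

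The second of these loci was LINC00467, whose transcript is known to encode a peptide associated with mitochondrial ATP synthase. It had 31.8 and 34.1 CPM in siNAT10 and 22.8 and 22.7 CPM in siControl (log2 fold change 0.53 ± 0.09, adjusted p = 7.22e-05, edgeR quasi-likelihood). The remaining 4 were low and their groups overlapped. LINC00116, now MTLN, encodes the mitochondrial peptide mitoregulin and had 1.62 and 2.24 CPM in siNAT10 and 1.58 and 1.78 CPM in siControl (0.19 ± 0.27). LINC00493, now SMIM26, encodes another mitochondrial peptide, shares exon bases with DTD1 and had 1.04 and 0.678 CPM in siNAT10 and 1.10 and 0.700 CPM in siControl (-0.06 ± 0.38). LINC01420, now NBDY, encodes a peptide that binds the mRNA decapping complex and had 3.87 and 5.25 CPM in siNAT10 and 4.99 and 6.09 CPM in siControl (-0.29 ± 0.18). LINC00961, now SPAAR, encodes a lysosomal peptide that restrains amino acid signalling to mTORC1 and had 1.47 and 1.02 CPM in siNAT10 and 1.08 and 0.754 CPM in siControl (0.45 ± 0.34). The 95% intervals ran from -0.37 to 0.75 for LINC00116, -0.86 to 0.74 for LINC00493, -0.66 to 0.09 for LINC01420 and -0.26 to 1.16 for LINC00961.

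Of 15 LINC RNAs listed as described in squamous carcinoma, 9 were members, and 3 of these rose, 3 fell and 3 were not called, where 19.7% of all rows were called higher and 20.7% lower. The count is too small to set the list apart from the table. LINC00460, LINC00520 and LINC01116 had 4, 8 and 8 counts in all 4 libraries together. The rises included LINC00152, now CYTOR, a cytoplasmic RNA described in many carcinomas, which overlaps AC133644.2 on the opposite strand. It had 14.2 and 14.3 CPM in siNAT10 and 10.01 and 11.2 CPM in siControl (log2 fold change 0.43 ± 0.11, adjusted p = 0.00489, edgeR quasi-likelihood). LINC00958, described in oral squamous carcinoma, had 50.6 and 54.1 CPM in siNAT10 and 44.7 and 41.8 CPM in siControl (0.28 ± 0.08). LINC01133, described in lung squamous carcinoma, had 2.63 and 2.34 CPM in siNAT10 and 0.945 and 1.62 CPM in siControl (0.96 ± 0.28). The siNAT10 values were above those of siControl in all 3, but LINC00958 had an adjusted p of 0.102 with library totals alone and 0.0966 without siNAT10 replicate 2, and LINC01133 had 0.122 without siControl replicate 1 and 0.0856 in the DESeq2 Wald test.

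The falls on that list were LINC00941, given above, LINC00511 and LINC00346. LINC00511 had 1.33 and 1.25 CPM in siNAT10 and 2.60 and 2.67 CPM in siControl (log2 fold change -1.02 ± 0.25, adjusted p = 0.00259, edgeR quasi-likelihood) and overlaps RP11-57A1.1. LINC00346, now PRECSIT, is an unspliced RNA under p53 control described in cutaneous squamous carcinoma, and it had 13.7 and 11.7 CPM in siNAT10 and 18.3 and 18.1 CPM in siControl (-0.51 ± 0.11). Both were lower in each siNAT10 library than in either siControl library. Among the uncalled, LINC01234 had 13.2 and 14.6 CPM in siNAT10 and 12.1 and 14.3 CPM in siControl (0.07 ± 0.12). LINC01503 had 0.809 and 0.915 CPM in siNAT10 and 0.762 and 0.566 CPM in siControl (0.37 ± 0.39). LINC01296, which is the duplicated locus DUXAP9 whose reads may be shared with near-identical copies, had 2.92 and 4.37 CPM in siNAT10 and 3.34 and 3.13 CPM in siControl (0.16 ± 0.21).

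Of 6 RNAs listed for a later name and a mechanism, 4 were members, and 1 rose (LINC00152), 2 fell (LINC01021 and LINC00473) and 1 was not called, beside 40.4% called of all rows. The last is LINC01578, now CHASERR, which is known to repress CHD2, the chromatin remodeller gene downstream of it. LINC01578 had 34.0 and 37.2 CPM in siNAT10 and 32.4 and 33.0 CPM in siControl (log2 fold change 0.12 ± 0.08, 95% interval -0.05 to 0.30). CHD2 had 817 and 800.1 CPM in siNAT10 and 878 and 811 CPM in siControl (-0.06 ± 0.06, adjusted p = 0.468, edgeR quasi-likelihood). Neither row of the pair passed the test, and LINC01578 shares exon bases with RP11-437B10.1.

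The 79 uncalled members had 37 positive and 42 negative log2 fold changes, and for 62 of them the 95% interval lay within 2-fold in either direction. The following 3 were picked after their values were seen. LINC00969 (now MIR570HG) was nearly level, with 31.4 and 32.9 CPM in siNAT10 and 31.2 and 31.0 CPM in siControl (log2 fold change 0.05, 95% interval -0.13 to 0.22), and overlaps MUC20, SDHAP2 and RP11-141C7.2. LINC01278 had 27.6 and 29.3 CPM in siNAT10 and 27.2 and 38.2 CPM in siControl, so that its siControl replicate 2 stood apart from the other 3 libraries. LINC01128, the antisense partner of LINC00115 and RP5-857K21.4, had 19.2 and 18.7 CPM in siNAT10 and 17.4 and 15.4 CPM in siControl (0.21, adjusted p = 0.110 in edgeR's quasi-likelihood test).

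Other long noncoding RNAs that carry a name were set beside the LINC RNAs. Of 28 listed, 22 were tested, and 3 were called higher, 9 lower and 10 not called, with a median log2 fold change of -0.04. Of all rows tested 19.7% were called higher and 20.7% lower. NEAT1, the scaffold of paraspeckles, averaged 869 CPM in siNAT10 and 1600.5 CPM in siControl (log2 fold change -0.88 ± 0.07). LUCAT1, an RNA induced by stress, averaged 22.1 CPM in siNAT10 and 55.8 CPM in siControl (-1.34 ± 0.09). MALAT1, the abundant RNA of nuclear speckles, averaged 2925 CPM in siNAT10 and 2483 CPM in siControl (0.24 ± 0.07). NEAT1 and MALAT1 share exon bases with other rows of the table that cover parts of the same RNAs. LUCAT1 shares exon bases with RP11-213H15.4 on the same strand.

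The LINC RNAs were then compared with their nearest protein-coding rows, since some such RNAs are known to act on their neighbours. A tested neighbour was found for 118 members. The 2 rows of a pair had log2 fold changes of the same sign in 70 pairs (59.3%). Among protein-coding rows and their nearest protein-coding row the share was 60.6% of 12119 pairs, so the LINC share was not above it. The sets are not alike, with a median gap of 8220 bases in the LINC pairs and 497 in the protein-coding pairs. A protein-coding pair could also enter from both of its rows. Without shared exon bases the shares were 57.1% of 98 LINC pairs and 57.3% of 7971 protein-coding pairs. Across the 118 pairs Pearson's r was 0.24 and Spearman's coefficient 0.20, and across the protein-coding pairs both were 0.29. These are descriptions across genes, which share the same 4 libraries and are not replicates. In 23 of the 118 pairs both rows were called, with the same sign in 14. Of all rows tested 40.4% were called, and the matching count among protein-coding pairs was not made. Where starts lay head to head within 1000 bases, 7 of 8 pairs had the same sign, against 58.4% of 787 protein-coding pairs so placed, and 8 pairs are few. Where the gap exceeded 100000 bases, 7 of 17 pairs did.

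Of pairs in which both fell, LINC00552 lies 8151 bases from TMEM255B, which averaged 3.10 CPM in siNAT10 and 7.90 CPM in siControl (log2 fold change -1.36 ± 0.18). LINC00313 and LINC00319 lie close to each other, with SIK1 as the nearest protein-coding row of both, a kinase gene induced by cyclic AMP. LINC00319 had 3.47 and 4.47 CPM in siNAT10 and 8.48 and 7.62 CPM in siControl (-1.03 ± 0.16), and SIK1 had 31.9 and 29.3 CPM in siNAT10 and 40.6 and 49.6 CPM in siControl (-0.56 ± 0.09). All 3 rows of this stretch of chromosome 21 were lower in siNAT10. LINC01629 fell by 0.96 and IRF2BPL, at a gap of 58741 bases, fell by 0.95 on the log2 scale. LINC00239 lies 29276 bases from PPP2R5C, a regulatory subunit gene of protein phosphatase 2A, which averaged 101 CPM in siNAT10 and 158 CPM in siControl (-0.64 ± 0.07). In LINC00689 and VIPR2, a receptor gene for vasoactive intestinal peptide (-1.84 ± 0.17), and in LINC00936 (-0.93 ± 0.21) and the calcium pump gene ATP2B1 (-0.86 ± 0.07), the exons of the pair overlap on opposite strands, so the reads may be shared. Pairs named in this and the next paragraph beyond the neighbours of the members named above were picked after their values were seen.

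Other pairs rose together, moved apart, or held only 1 row that was called. LINC00923 fell while ARRDC4, an arrestin-domain gene whose start lies 86148 bases away head to head, had 6.47 and 6.84 CPM in siNAT10 and 2.68 and 2.75 CPM in siControl (log2 fold change 1.29 ± 0.17). LINC00668 rose with ARHGAP28, 3780 bases away (1.59 ± 0.20). The largest neighbour change was that of PZP, which averaged 4.18 CPM in siNAT10 and 0.388 CPM in siControl (3.43 ± 0.31), beside LINC00987, which had 2.69 and 3.08 CPM in siNAT10 and 2.21 and 1.67 CPM in siControl and missed the threshold (0.57 ± 0.23, adjusted p = 0.0573, edgeR quasi-likelihood). LINC00987 overlaps A2MP1 and PTMAP4 on the opposite strand, and A2MP1 had 1.73 and 1.76 CPM in siNAT10 and 0.525 and 0.431 CPM in siControl (1.86 ± 0.34). FAM207A, which was not called (-0.22 ± 0.09, adjusted p = 0.0623), has a falling LINC RNA on one side and a rising one on the other. LINC01547, whose start is 97 bases from that of FAM207A, had 1.13 and 1.02 CPM in siNAT10 and 2.28 and 2.53 CPM in siControl (-1.16 ± 0.27), and LINC00165 rose. LINC01468, now LNCAROD, is known as an activator of DKK1, and it had 4.22 and 3.46 CPM in siNAT10 and 5.96 and 6.57 CPM in siControl (-0.70 ± 0.17), while DKK1 averaged 4.62 CPM in siNAT10 and 3.55 CPM in siControl (0.38 ± 0.19, adjusted p = 0.110). Several of the most changed LINC RNAs had neighbours close to 0, such as ZNF33B beside LINC01518 (-0.02 ± 0.09), E2F6 beside LINC00570 (-0.08 ± 0.10), CAPRIN2 beside LINC00941 (-0.12 ± 0.12) and KRBOX4 beside LINC01186 (0.08 ± 0.15).

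**Figure D5:**
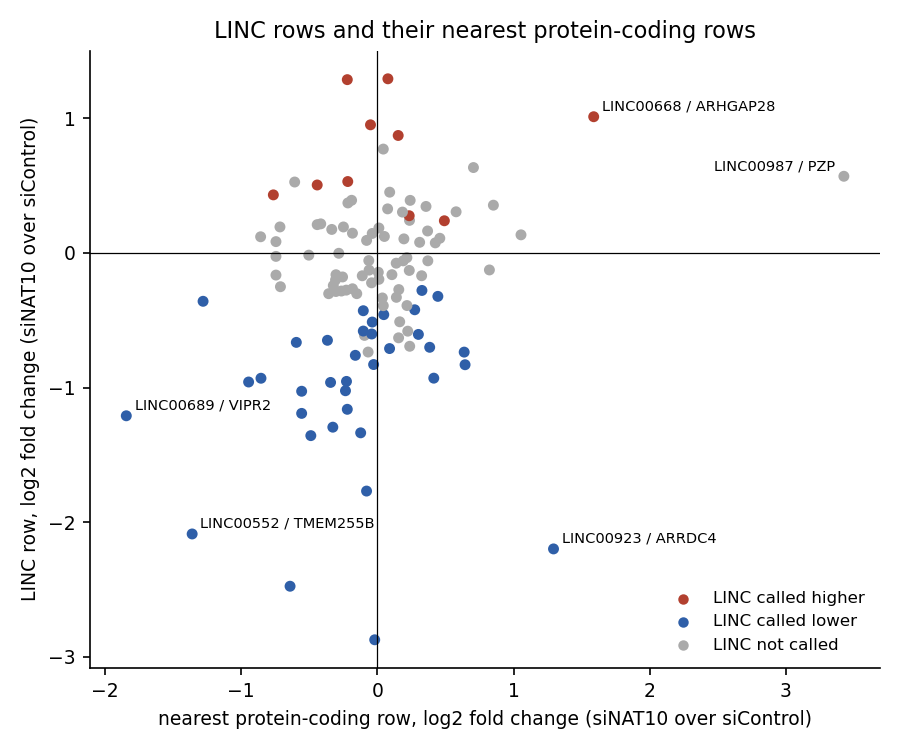
Log2 fold change (siNAT10 over siControl) of each LINC RNA (vertical axis) against that of its nearest protein-coding row (horizontal axis) for 118 pairs, coloured by the call of the LINC RNA. Most neighbours lie within 1 of 0 on the log2 scale while the LINC RNAs spread from -2.87 to 1.29, and PZP beside LINC00987 stands alone at 3.43.

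Promoter sequence was available from RefSeq (GRCh38.p14) for 98 members as 300 bases, 250 before to 50 after the annotated start, and for 66 of these the start lay within 100 bases of that in the deposited table. A set of 7 letter strings bound by known factors was searched on both strands, with overlaps between motifs allowed. The AP-1 string TGANTCA was present in 1 of 8 promoters of members called higher, 5 of 21 called lower and 2 of 37 not called, and in 7.76% of all 27305 promoters. The cyclic AMP response element half-site TGACG was present in 1 of 8, 7 of 21 and 12 of 37 in the same order, and in 6828 of all promoters. The full element TGACGTCA, which contains the half-site, was present in 0 of 8, 0 of 21 and 1 of 37 (1.98% of all promoters), and the E-box CACGTG in 0 of 8, 0 of 21 and 6 of 37 (7.43%). The TEAD string GGAATG was present in 2 of 8, 2 of 21 and 4 of 37 (3836 of all promoters). The ATF4-C/EBP string TGATGNAAT (1.02% of all promoters) and the interferon response string (3.65%) were present in none of the 66. A match is a description of the letters and not of binding, and counts of this size were not tested. The promoters shown, on the strand of the RNA, are those of 4 members that fell (LINC01518, LINC00941, LINC00473 and LINC00346) and 2 that rose (LINC01186 and LINC00152). TGACG and TGANTCA on either strand are in capitals. These are examples picked without a set rule, and do not stand for all falls. The promoters of LINC00511, LINC00626 and LINC01547, which also fell, hold neither string.

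LINC01518, chr10:42691710-42692009, minus strand: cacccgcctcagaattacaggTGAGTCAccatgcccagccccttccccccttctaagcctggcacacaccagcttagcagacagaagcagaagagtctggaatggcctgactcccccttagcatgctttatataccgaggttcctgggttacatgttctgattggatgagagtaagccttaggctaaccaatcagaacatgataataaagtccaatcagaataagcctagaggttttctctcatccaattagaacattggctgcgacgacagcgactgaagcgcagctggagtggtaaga
LINC00941, chr12:30795431-30795730, plus strand: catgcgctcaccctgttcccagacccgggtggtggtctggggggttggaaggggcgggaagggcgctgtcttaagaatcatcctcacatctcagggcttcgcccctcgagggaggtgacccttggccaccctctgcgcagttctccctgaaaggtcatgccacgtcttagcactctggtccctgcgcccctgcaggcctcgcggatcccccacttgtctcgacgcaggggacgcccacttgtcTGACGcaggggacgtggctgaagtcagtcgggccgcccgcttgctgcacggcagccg
LINC00473, chr6:165987990-165988289, minus strand: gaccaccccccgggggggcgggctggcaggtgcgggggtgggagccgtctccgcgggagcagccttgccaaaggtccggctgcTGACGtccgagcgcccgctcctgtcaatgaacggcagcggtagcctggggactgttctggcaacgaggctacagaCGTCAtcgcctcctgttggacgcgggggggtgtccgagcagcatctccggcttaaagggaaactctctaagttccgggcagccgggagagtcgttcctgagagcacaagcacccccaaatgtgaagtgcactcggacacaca
LINC00346 (PRECSIT), chr13:110870259-110870558, minus strand: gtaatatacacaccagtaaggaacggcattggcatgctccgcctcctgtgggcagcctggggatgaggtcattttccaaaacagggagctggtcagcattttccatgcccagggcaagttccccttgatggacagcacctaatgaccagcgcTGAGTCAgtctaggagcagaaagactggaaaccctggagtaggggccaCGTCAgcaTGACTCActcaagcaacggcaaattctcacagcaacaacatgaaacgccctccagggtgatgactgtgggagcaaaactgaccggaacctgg
LINC01186, chrX:46327625-46327924, minus strand: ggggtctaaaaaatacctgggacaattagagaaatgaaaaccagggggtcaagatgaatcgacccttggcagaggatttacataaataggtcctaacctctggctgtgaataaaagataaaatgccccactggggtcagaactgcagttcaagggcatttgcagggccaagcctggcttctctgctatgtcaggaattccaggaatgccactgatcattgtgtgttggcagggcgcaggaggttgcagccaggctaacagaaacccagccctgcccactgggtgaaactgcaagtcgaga
LINC00152 (CYTOR), chr2:87455177-87455476, plus strand: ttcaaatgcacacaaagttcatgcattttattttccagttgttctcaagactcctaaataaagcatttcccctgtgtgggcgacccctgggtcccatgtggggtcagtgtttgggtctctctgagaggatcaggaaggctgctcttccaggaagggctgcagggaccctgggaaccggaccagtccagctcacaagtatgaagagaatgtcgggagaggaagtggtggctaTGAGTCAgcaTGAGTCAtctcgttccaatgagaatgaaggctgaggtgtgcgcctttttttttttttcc

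LINC00473, which fell, holds the half-site at 2 places, and LINC00346, which fell, holds 2 AP-1 strings and a half-site. LINC00152, which rose, also holds 2 AP-1 strings, so that this string occurs on both sides of the comparison. LINC01186, the largest rise, holds neither.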

How the data were processed

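RNA sequencing counts were used for 4 libraries of SAS cells, 2 labelled siNAT10 and 2 labelled siControl, grouped by sample title. Per the labels' protocols, TRIzol served to extract total RNA and a digital mRNA kit to make the libraries. The submitters' processing notes name STAR 2.5.3a, fastp 0.23.4 and featureCounts as the authors' tools and GRCh38 as the build. Not given in the sources used here are the annotation release, the strand setting and whether molecular identifiers served to collapse PCR copies. The deposited table holds counts of reads for each gene, with no normalization. Small counts (1 to 50) were even in 72.0% to 73.5% of cases, by library, so the counts were also analysed halved.

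Counts were tested on the whole table in R 4.3.3 with edgeR 4.0.16 (filterByExpr by group, TMM scaling, glmQLFit with robust shrinkage, glmQLFTest on the group, two-sided), with Benjamini-Hochberg adjustment over 20098 rows and a threshold of 0.05. This test and its code were run on simulated counts with a single fixed dispersion and few changed rows. These settings differ from the data, so the run gives no error rate for the calls made here. CPM are on TMM-scaled library sizes, and TPM were computed from counts and the deposited exonic lengths. An SE is that of the log2 fold change, from the fit, and no sample was dropped. Intervals and floors reflect only counting error and how these libraries vary, and whether PCR copies were collapsed is unknown. The labels call the samples biological replicates without saying how cultures were separated. The chi-square per degree of freedom between replicates was 5.14 in siNAT10 and 8.68 in siControl, so in each group they differed by more than counting alone gives.

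Exon overlaps and nearest protein-coding rows came from the deposited coordinates, and 103 members had the same position in GENCODE 29. Of the 133, 27 have a later symbol in RefSeq and 8 are protein coding there. The members named are the 12 largest called rises and falls that reached 1 CPM in the higher of the groups without the groups overlapping, the 10 highest per length, and the members of 3 LINC lists, with their neighbours and overlapping rows. Those outside this rule are said to be picked after their values were seen. Members, gene lists and motifs were chosen with earlier results of these data known, and support nothing on their own. A further marker gene, and the summed level of the leukocyte markers, are not reported here.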

Additional observations from a re-analysis of the deposited data

How the results depend on the processing

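The counts were recomputed under 12 alternatives chosen with the design. No called member changed sign in any of them, and 32 of the 54 called members (6 of 13 higher, 26 of 41 lower) were called in every alternative that tested them. DESeq2 size factors, no count filter, a 50-count filter and halved counts gave 52 to 55 calls among the members and 8043 to 8126 among all rows. The DESeq2 1.42.0 Wald test called 35 members, 7 higher and 28 lower, of which all 35 were among the 54. Over all 19818 rows it tested, it called 5611, 2840 higher and 2771 lower. Library totals alone gave a median log2 fold change of -0.28. Leaving out rows with exon overlap left 75 members, with 7 called higher, 29 lower and a median of -0.29. Of all 9865 rows then tested, 1894 were called higher and 2040 lower, with a median of -0.01.

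Leaving out 1 library left 1 library in its group, so only the size of the changes is given for the set. The median log2 fold change of the members was then -0.19 to -0.14, and that of all rows -0.022 to 0.004. Some uncalled members changed sign. LINC01234 was at -0.037 with library totals alone. Leaving out 1 library gave -0.048 (without siControl replicate 1) to 0.20 for LINC01234, and -0.41 to 0.30 for LINC00493, which was positive at 0.21 without siNAT10 replicate 2 and at 0.30 without siControl replicate 1. For LINC00116 and LINC01296 it gave -0.048 to 0.42 and -0.14 to 0.44, with the negative value without siNAT10 replicate 2 in both. With the replicate number as a block, 55 members were called (14 higher, 41 lower), and 8254 of all 20098 rows (3997 higher, 4257 lower). Deviations of same-numbered libraries had a correlation of -0.02 over 20098 rows, so the numbers give no sign of pairing.

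At 2 libraries a group the precision of rare RNAs is limited. The median SE of the members was 0.20 on the log2 scale (upper quartile 0.30). Of the 537 LINC rows, 404 lay below 100 counts and 249 below 10, and these were not analysed as members.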
